A study of Mus musculus with 4 samples.

Results

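Cadherins are cell surface proteins that bind each other across the gap between neighbouring cells and need calcium to do so. The classical cadherins hold catenins on their inner side, and catenins link the junction to the actin cytoskeleton. Protocadherins, the giant Fat and Dachsous cadherins and the Celsr cadherins share the extracellular cadherin repeat but differ in their inner side, and many of them act in cell recognition and planar polarity. In marrow stroma and bone-forming cells, Cdh2 (N-cadherin) and Cdh11 (OB-cadherin) are the best known members. The genes described here are the 42 cadherins and non-clustered protocadherins named Cdh or Pcdh with a number, without Cdh5, together with Fat1 to Fat4, Dchs1 and Celsr1 to Celsr3. They were selected by symbol alone and are 42 of 34312 annotated gene symbols, of which 23427 had at least 1 count.

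RNA came from bone marrow of wild type male C57Bl/6 mice that were either mature (3 months) or elderly (24 months). The methods of the study describe sorted Lin−LEPR+ cells, negative for Ter119, CD31 and CD45 and positive for the leptin receptor, whereas the labels name whole bone marrow. Each age had 2 libraries, and each library held RNA of 3 or 4 mice, so the SD given below describes the spread between pools (n = 2 per age) and not between mice. The comparison asks which genes of Lin−LEPR+ cells differ between the ages.

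The libraries held 10472117 to 15650518 counts. A list of 10 markers of LEPR+ stromal cells, among them Lepr, Cxcl12 and Kitl, summed to 30569 and 31108 CPM (counts per 1000000 counts, scaled by the trimmed mean of M-values, TMM) in the mature libraries and to 19036 and 27335 CPM in the elderly libraries. None of the 10 passed the test between ages, and their median log2 fold change (elderly minus mature) was −0.44. For 6 of the 10 both elderly values were below both mature values, and for 0 they were above. The same held downwards for 20.8% of all genes with a mean of at least 1 CPM. The sum of this list is the divisor of the values given relative to it below. Markers of some other marrow cells also differed between the ages, where 2.28% of all genes tested were called higher and 0.449% lower. No gene was called among the tested markers of B-lineage cells (6), T cells (5), megakaryocytes (7) and endothelial cells (8). The neutrophil list summed to 2108 and 1205 CPM in mature and 4531 and 4475 CPM in elderly libraries, with 7 of 9 tested genes higher. The erythroid list summed to 327 and 131 CPM in mature and 989 and 988 CPM in elderly libraries, with 6 of 9 tested genes higher, and 4 of 8 macrophage genes were higher. The osteoblast list summed to 7039 and 6418 CPM in mature and to 2167 and 4094 CPM in elderly libraries, with Ibsp, its most abundant gene, lower and Col1a1 higher among 9 tested genes. The median log2 fold change of the osteoblast list was 0.02. In it, 2 genes had both elderly values above both mature values and 2 had them below. The part of these cells in the results below was not tested, and in such bulk RNA fewer cells of a type and less RNA per cell cannot be told apart.

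The deposited counts are given per transcript, and no count fell on a transcript that has no exonic base of its own. A base was therefore taken as countable only where a single annotated transcript covers it, on either strand. The order of levels between genes is therefore given below as CPM per 1000 countable bases. Among the 42 genes, 9 had fewer than 1000 countable bases and 7 had less than 10% of the length of their longest transcript. The giant cadherins were most affected. Fat4 kept 14018 countable bases beside a longest transcript of 16109 bases, whereas Fat1 kept 166 beside 14627, Fat2 kept 149 beside 14528 and Dchs1 kept 418 beside 10771. Pcdh19, a protocadherin known from a form of epilepsy, kept 160 beside 10273.

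**Figure D1:**
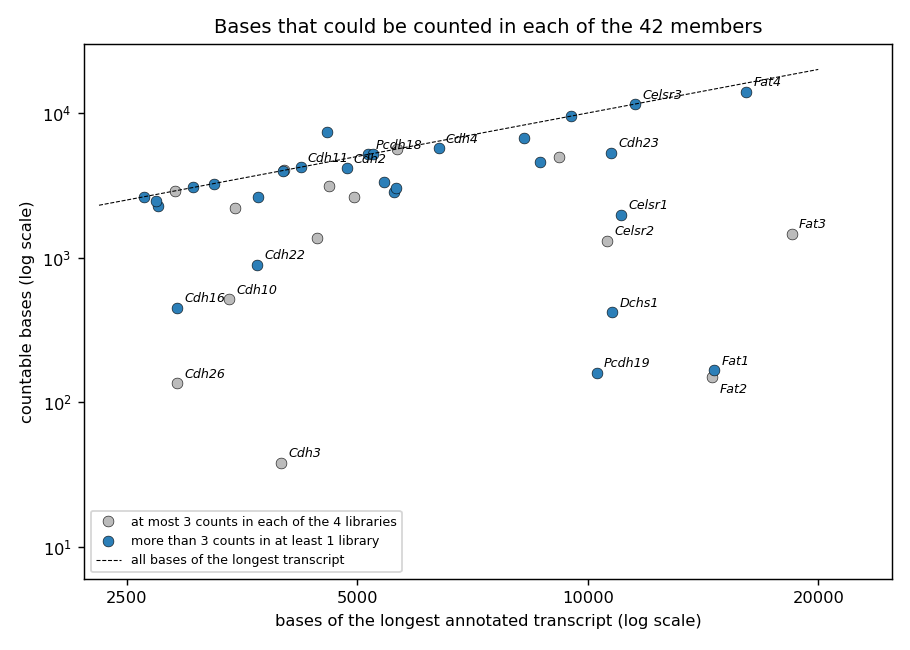
Countable bases of each of the 42 genes (vertical, log scale) against the bases of its longest annotated transcript (horizontal, log scale), with genes of at most 3 counts in every library in grey and the others in blue. Points far below the dashed line, such as Fat1, Fat2, Pcdh19 and Dchs1, could be counted over a small stretch only, and a point can lie above the line because countable bases are summed over all transcripts of a gene.

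For Fat1 and Pcdh19 the counts thus describe a few short stretches and not the whole gene, and the longest coding stretches are shown because the counts of both genes rest on them. They are printed 5′ to 3′ on the strand of the gene, in the NCBI Build 37 (NCBIM37) assembly. The Pcdh19 stretch is the whole coding exon 2 of 6 in Pcdh19-001, at chrX:130216631-130216771 on the minus strand (141 bases). It held all of the 17, 23, 4 and 5 counts of the gene. The Fat1 stretches lie on the plus strand of chromosome 8. The stretch of 29 bases belongs to exon 23 of 28 in Fat1-201 (chr8:46127388-46127416), that of 45 bases to exon 21 of 26 in Fat1-202 (chr8:46125888-46125932), and that of 60 bases is the whole exon 6 of 8 in Fat1-203 (chr8:46133004-46133063). All are coding, no letters are marked in capitals, and no other annotated transcript covers them. Fat1-201 had 6 and 7 counts in mature and 2 and 2 counts in elderly libraries. Fat1-202, with 6 further bases in exon 20, had 36 and 21 counts against 28 and 45, and Fat1-203 had 27 and 6 counts against 12 and 43. The remaining 26 bases of Fat1 are the last exon of a further transcript, with 16 and 0 counts in mature and 6 and 9 counts in elderly libraries.
Pcdh19-001 exon 2: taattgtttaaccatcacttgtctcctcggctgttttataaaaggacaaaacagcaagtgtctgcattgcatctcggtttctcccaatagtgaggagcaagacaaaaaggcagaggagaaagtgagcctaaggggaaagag
Fat1-201 exon 23: gtatgtttgtatctctttcttagtgactt
Fat1-202 exon 21: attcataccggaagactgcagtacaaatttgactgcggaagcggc
Fat1-203 exon 6: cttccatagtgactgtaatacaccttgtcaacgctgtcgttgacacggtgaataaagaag

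Cdh11, Fat4, Pcdh18 and Cdh2 held 97.8% of the summed counts of the 42 genes at both ages, a share that depends on how many bases of each gene were countable. Per 1000 countable bases, averaged over the 4 libraries, the order of levels was Cdh11 (1179 CPM), Pcdh18 (67.4 CPM), Fat4 (64.4 CPM), Cdh2 (32.2 CPM), Fat1 (31.7 CPM) and Pcdh9 (11.1 CPM). The values of Fat1 and Cdh2 are not levels of the whole gene. The 166 countable bases of Fat1 lie in stretches of at most 60 bases. Its place beside genes counted over long stretches is therefore uncertain. For Cdh2, 3111 of the 4153 countable bases, and most counts, belong to a transcript annotated as a retained intron. Cdh11 stood 17.5-fold above Pcdh18. Pcdh18 and Fat4 did not differ beyond their spread (76.8 ± 24.9 and 78.5 ± 5.31 CPM per 1000 countable bases in mature libraries, SD, n = 2). Cdh2 and Fat1 had no fixed order, with 44.4 ± 10.4 and 30.8 ± 18.7 in mature and 20.0 ± 0.688 and 32.6 ± 9.44 in elderly libraries. Cdh24, Cdh15 and Pcdh1 followed between 6.46 and 6.99 CPM per 1000 countable bases. Pcdh19 averaged 6.44 but had 10.7 in mature and 2.15 in elderly libraries.

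Of the 42 genes, 19 had a mean of at least 1 CPM, 14 had at most 3 counts in each of the 4 libraries, and 6 of these 14 (Cdh3, Cdh7, Cdh9, Cdh10, Cdh20 and Fat2) had 0 counts in every library. A count of 0 allows up to 3 counts, which is 0.198 to 0.269 CPM, and covers counting error only. For Cdh3, with 38 countable bases, and Fat2 this says little of the gene. The epithelial Cdh1 (E-cadherin) had 2 counts in each of the 4 libraries over 1371 countable bases, and 6 epithelial markers, among them Epcam and Krt8, summed to at most 1.08 CPM.

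**Figure D2:**
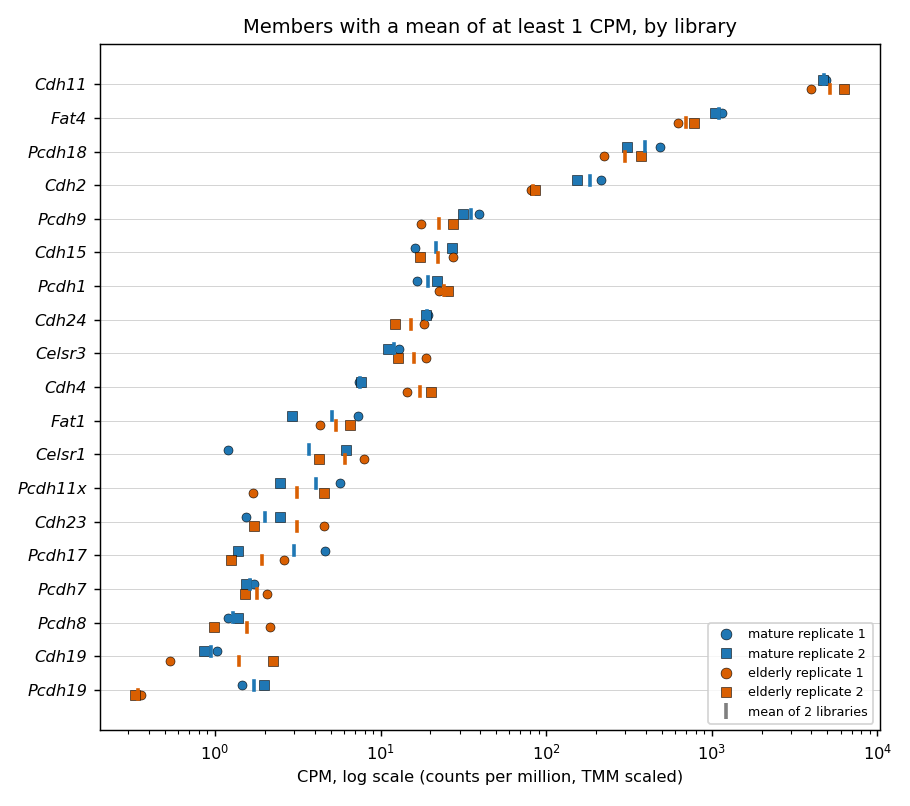
CPM on a log scale of the 19 genes with a mean of at least 1 CPM, with 1 point per library (mature in blue, elderly in orange) and a bar at the mean of each age. Cdh11 lies between 3994 and 6307 CPM in all 4 libraries, and the ages are apart for Fat4, Cdh2, Pcdh9, Cdh24 and Pcdh19 (elderly lower) and for Cdh4 and Pcdh1 (elderly higher).

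Between the ages, Cdh2 was the one gene of the 42 that passed edgeR's quasi-likelihood test with an adjusted p below 0.05, adjusted across the whole table, and it was lower in elderly libraries. Of the most abundant genes, Cdh11 showed no direction, with elderly libraries on either side of the mature ones, whereas Fat4 and Pcdh18 had lower elderly means without passing the test. Of 32 genes tested, 1 was lower and 0 were higher, where 0.449% of all 21402 genes tested were lower and 2.28% were higher. At an unadjusted p under 0.05, 1 of the 32 was higher (Cdh4) and 7 were lower (Cdh2, Fat4, Pcdh9, Pcdh19, Pcdh10, Cdh16 and Pcdh20), against 7.62% and 3.63% of all genes. DESeq2 called 1 higher (Cdh4) and 2 lower (Cdh2 and Fat4), and edgeR's exact test at a dispersion of 0.2 called 0 in either direction. The median log2 fold change (elderly minus mature throughout) was −0.30 over the 32 tested genes and 0.09 over the 19 with at least 1 CPM, and it was 0.02 over all genes tested. With the 4 tested genes left out that had at most 3 counts in every library, and with Cdh6, Cdh13 and Pcdh20 set to the limit that 3 counts allow, the median of the other 28 was also −0.30. This median could not move, because the set values stayed below it. The genes left out lay above it (Cdh1 and Celsr2) and below it (Cdh26 and Fat3) in equal number. Among the 19, the libraries of both ages overlapped for 12, both elderly values exceeded both mature values for 2 and fell short of them for 5. The same held upwards for 22.9% and downwards for 20.8% of the 14260 genes with at least 1 CPM.

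**Figure D3:**
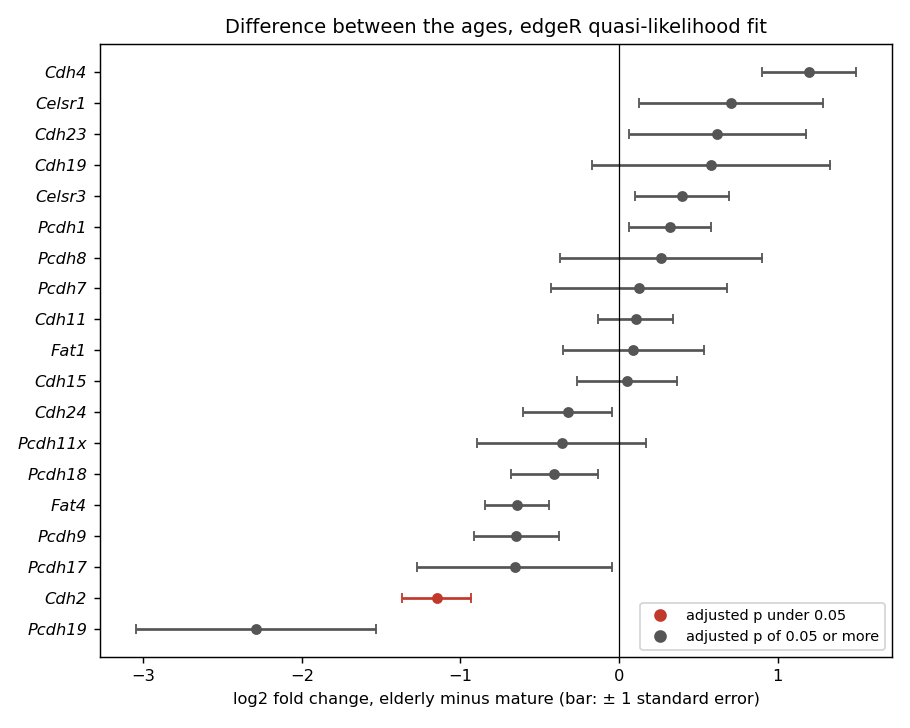
Log2 fold change (elderly minus mature, horizontal) of the 19 genes with a mean of at least 1 CPM, with bars of 1 standard error from edgeR's quasi-likelihood fit. Cdh2 (−1.15, SE 0.22, red) is the gene with an adjusted p under 0.05, and Pcdh19 has the lowest value with a wide bar (−2.29, SE 0.76).

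Among the classical type I cadherins, which bind like to like in strong junctions, Cdh2 and Cdh4 had log2 fold changes of opposite sign, and Cdh2 alone passed the test. Cdh2 had 215 and 154 CPM in the mature libraries and 81.0 and 85.1 CPM in the elderly libraries. Both elderly libraries were below both mature libraries, and the elderly libraries lay closer together than the mature libraries. The log2 fold change was −1.15 (SE 0.22, adjusted p = 0.014 by edgeR's quasi-likelihood test). The call was lost without mature replicate 1 (−0.89, adjusted p = 0.0906), without elderly replicate 1 (−1.13, adjusted p = 0.171) and without elderly replicate 2 (−1.19, adjusted p = 0.60, in a fit that called 0 genes of 20631). Relative to 1000 CPM of the LEPR+ marker list, Cdh2 had 7.03 and 4.94 CPM in mature and 4.26 and 3.11 CPM in elderly libraries, and the ages again did not overlap.

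Most Cdh2 counts did not lie on a coding transcript. Cdh2 spans chr18:16747386-16967755 on the minus strand (NCBIM37) and has 3 annotated transcripts. Cdh2-002, annotated as a retained intron, consists of 2 exons in the 5′ part of the gene, and its countable stretch of 3111 bases at chr18:16929906-16933016 holds no coding base. It had 2253 and 1430 counts in mature and 778 and 1046 counts in elderly libraries, which was 79.8% to 90.2% of the counts of the gene. In the fit per transcript its log2 fold change was −1.14 (SE 0.26, adjusted p = 0.016, where 0.222% of the 42413 transcripts tested were called lower). Whether all libraries were made from poly(A) RNA is not clear from the sources used here, and the part of this in these values was not tested. Among the samples processed as total RNA, the methods name a sample by an age in weeks close to that of the mature mice. If the mature libraries were made in this way, library preparation and age cannot be told apart in the intron counts.

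The coding Cdh2-001 kept 930 countable bases, 784 in a noncoding part of exon 1 and 146 at the end of exon 16, none of them coding. Its counts were 205 and 339 in mature and 116 and 232 in elderly libraries (log2 fold change −0.81, SE 0.32, adjusted p = 0.38). The second coding transcript, Cdh2-003, had 40 and 24 counts in mature and 9 and 13 counts in elderly libraries over its first exon of 112 bases (−1.66, SE 0.56, adjusted p = 0.22). The lower values were those of the elderly libraries in each of the 3 transcripts, without overlap, but neither coding transcript passed the test. With coding transcripts alone summed per gene, Cdh2 had a log2 fold change of −0.96 (SE 0.29) and an adjusted p of 0.078. Per 1000 countable bases, Cdh2-002 had 61.0 and 39.1 CPM in mature libraries beside 18.6 and 31.0 CPM for Cdh2-001, so the intron stretch was counted at a higher density than the ends of the coding transcript in each of them. In elderly libraries the values were 22.3 and 23.0 CPM beside 11.1 and 17.0 CPM.

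**Figure D4:**
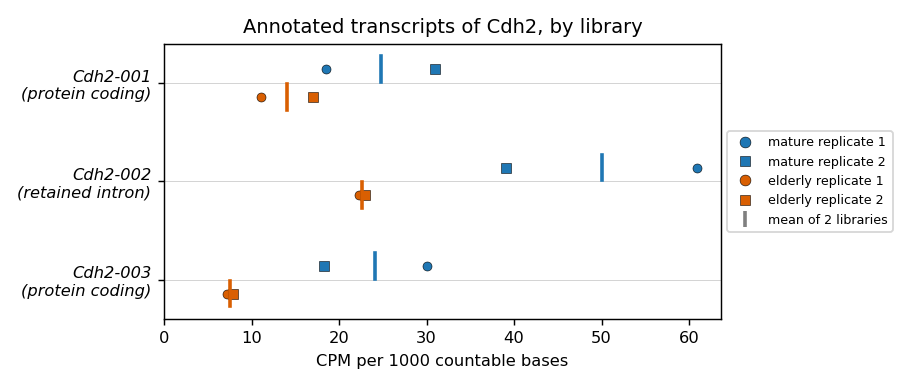
CPM per 1000 countable bases of the 3 annotated Cdh2 transcripts, with 1 point per library and a bar at the mean of each age. For Cdh2-002 (retained intron) the mature libraries lie at 61.0 and 39.1 and the elderly libraries at 22.3 and 23.0, and the elderly points are to the left of the mature points in all 3 transcripts.

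Cdh4 (R-cadherin), a close relative of Cdh2, had 86 and 89 counts in mature and 161 and 304 counts in elderly libraries, which was 7.40 and 7.63 CPM against 14.5 and 20.0 CPM. Both elderly libraries were higher than both mature ones. Its log2 fold change of 1.20 (SE 0.30) had an adjusted p of 0.052 in edgeR's quasi-likelihood test, just past the threshold. It was called in 9 of 11 alternative fits that kept all 4 libraries, but these reuse the same libraries. With each library left out in turn, its log2 fold change ranged from 0.94 to 1.40, and it was not called in any of these fits. All but 1 of its counts lay on the coding transcript Cdh4-001. Relative to 1000 CPM of the LEPR+ marker list it had 0.242 and 0.245 CPM in mature and 0.759 and 0.733 CPM in elderly libraries. Cdh15 (M-cadherin), best known from muscle precursor cells, had 16.1 and 27.0 CPM in mature and 27.4 and 17.3 CPM in elderly libraries, and the ages overlapped (log2 fold change 0.05, SE 0.31, adjusted p = 0.98). Of 6 markers of skeletal muscle and satellite cells, Myh4, Myod1 and Myf5 had 0 counts and the list summed to 0.602 to 2.57 CPM per library. Protein-coding genes are annotated on the same strand over Cdh15 (Gm20388) and Cdh4 (Gm10711).

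Cdh11, the leading type II cadherin and a marker of mesenchymal and bone-forming cells, had 4877 and 4696 CPM in mature and 3994 and 6307 CPM in elderly libraries. The elderly libraries lay on either side of the mature ones, and the log2 fold change was 0.11 (SE 0.24, adjusted p = 0.94). Cdh11 made up 72.4% of the cadherin counts in mature and 80.9% in elderly libraries. All 4216 bases of its annotated transcript were countable, with 1135 ± 30.4 CPM per 1000 bases in mature and 1222 ± 388 in elderly libraries (SD, n = 2). Relative to 1000 CPM of the LEPR+ marker list, however, Cdh11 had 160 and 151 CPM in mature and 210 and 231 CPM in elderly libraries, without overlap. The sum of that list was itself lower in both elderly libraries than in both mature ones. Without elderly replicate 2 its log2 fold change turned to −0.26.

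The other type II cadherins were much lower. Cdh24 had 19.3 and 18.7 CPM in mature and 18.2 and 12.2 CPM in elderly libraries (−0.32, SE 0.28, adjusted p = 0.74). Protein-coding genes are annotated over Cdh24 on the opposite strand, and whether the counting used strand is not given in the sources used here. Cdh19, known from Schwann cells and their precursors, had 1.03 and 0.857 CPM in mature and 0.539 and 2.24 CPM in elderly libraries. Its elderly values lay on either side of the mature ones (0.58, SE 0.75, adjusted p = 0.87). The list of 7 Schwann and neural markers summed to 88.9 and 71.7 CPM in mature and 150 and 140 CPM in elderly libraries, with 1 gene called higher (Mbp) and 0 lower. Sox10, a transcription factor of Schwann cells, had at most 0.171 CPM in any library. The part of such cells in the Cdh19 values was not tested. Cdh18 had 13 and 10 counts in mature and 2 and 22 counts in elderly libraries (−0.23, SE 0.88, adjusted p = 0.96). Cdh6, which is known from kidney and the nervous system, had its 7 counts in 1 mature library alone.

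Among the giant cadherins, Fat4, a planar polarity receptor that binds Dchs1, had 1153 and 1048 CPM in mature and 627 and 782 CPM in elderly libraries, with both elderly libraries below both mature ones. The log2 fold change of −0.64 (SE 0.20) did not pass edgeR's quasi-likelihood test (adjusted p = 0.15), but it passed with DESeq2 (adjusted p = 0.039) and with edgeR without the filter (adjusted p = 0.048). Between 99.1% and 99.7% of its counts lay on the coding transcript Fat4-001. Relative to 1000 CPM of the LEPR+ marker list, Fat4 had 37.7 and 33.7 CPM in mature and 32.9 and 28.6 CPM in elderly libraries, so that the ages were still apart but close. Its ligand Dchs1 had 4 and 2 counts in mature and 0 and 6 counts in elderly libraries over 418 countable bases. Fat1 had 7.31 and 2.91 CPM in mature and 4.31 and 6.53 CPM in elderly libraries, and the ages overlapped (0.09, SE 0.45, adjusted p = 0.97). As shown by its stretches, this value covers 166 bases of the gene. Fat3 had 0 to 2 counts in each library.

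The Celsr cadherins are planar polarity receptors with a cadherin ectodomain on a receptor that crosses the membrane several times. Celsr3 had 12.9 and 11.1 CPM in mature and 18.9 and 12.8 CPM in elderly libraries, and the lower elderly library fell within the mature range (0.40, SE 0.29, adjusted p = 0.69). Celsr1 had 14 and 72 counts in mature and 88 and 64 counts in elderly libraries, or 1.20, 6.17, 7.90 and 4.22 CPM. A single low mature library set its difference, since the log2 fold change of 0.71 (SE 0.58, adjusted p = 0.72) became −0.04 (adjusted p = 0.998) without mature replicate 1 and 2.27 (adjusted p = 0.0094) without mature replicate 2. Celsr2 had at most 2 counts in each library.

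The delta-2 protocadherins, which recruit the WAVE complex of actin regulators, were led by Pcdh18. It had 488 and 306 CPM in mature and 223 and 375 CPM in elderly libraries. The ages overlapped, and the log2 fold change was −0.41 (SE 0.27, adjusted p = 0.67). Pcdh19 had 1.46 and 1.97 CPM in mature and 0.359 and 0.330 CPM in elderly libraries, and both elderly libraries were below both mature ones. Its log2 fold change of −2.29 (SE 0.76) had an adjusted p of 0.18, and it rests on the 141-base exon printed above, which is annotated in 1 transcript of the gene. Pcdh10 had 23 and 6 counts in mature and 2 and 5 counts in elderly libraries (−2.21, SE 0.98, adjusted p = 0.41). Its coding transcript Pcdh10-203 had 19 and 6 counts in mature and 0 and 0 counts in elderly libraries and was called lower in the fit per transcript (adjusted p = 0.034 by edgeR's quasi-likelihood test), and all 5 counts of elderly replicate 2 lay on another coding transcript. Pcdh10-203 and Cdh2-002 were the 2 cadherin transcripts called in that fit, both lower, where 0.222% of all 42413 transcripts tested were called lower. The Pcdh10-203 call rests on few counts (log2 fold change −6.72, SE 1.63), and the gene as a whole was not called. Pcdh17 had 4.64 and 1.37 CPM in mature and 2.60 and 1.25 CPM in elderly libraries (−0.66, SE 0.61, adjusted p = 0.77). Pcdh8 had 1.20 and 1.37 CPM against 2.15 and 0.989 CPM (0.27, SE 0.64, adjusted p = 0.94). For both, the ages overlapped.

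Among the delta-1 protocadherins, Pcdh9 had 39.1 and 31.5 CPM in mature and 17.6 and 27.4 CPM in elderly libraries. Both elderly libraries were lower, with a log2 fold change of −0.65 (SE 0.27, adjusted p = 0.36). Pcdh1 had 16.6 and 21.9 CPM in mature and 22.6 and 25.4 CPM in elderly libraries, and both elderly libraries were higher by a small margin (0.32, SE 0.26, adjusted p = 0.71). Pcdh11x had 5.68 and 2.48 CPM in mature and 1.71 and 4.55 CPM in elderly libraries (−0.36, SE 0.53, adjusted p = 0.89). Pcdh7 had 1.72 and 1.54 CPM in mature and 2.06 and 1.52 CPM in elderly libraries (0.13, SE 0.55, adjusted p = 0.97). Neither Pcdh11x nor Pcdh7 had ages apart.

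Of the atypical cadherins and the other protocadherins, Cdh23 alone had a mean of at least 1 CPM, although Cdh16 had more per 1000 countable bases (1.78 CPM beside 0.485 CPM). Of the 5318 countable bases of Cdh23, 2963 belong to a noncoding transcript with 0 counts, which lowers its value. Cdh26 had 1 and 3 counts in mature and 0 and 0 counts in elderly libraries over 135 countable bases. Its 0.635 CPM per 1000 countable bases is therefore not a usable level. Cdh23, a tip-link protein of hair cells, had 1.55 and 2.48 CPM in mature and 4.58 and 1.71 CPM in elderly libraries (0.62, SE 0.56, adjusted p = 0.76). Its counts lay on transcripts without a coding annotation, and the coding transcripts kept 12 countable bases. The retained intron Cdh23-008 had 8 and 7 counts in mature and 40 and 9 counts in elderly libraries, and the retained intron Cdh23-011 had 9 and 17 counts against 3 and 13. Of the 51 counts of the higher elderly library, 40 lay on Cdh23-008. Cdh16, a kidney cadherin, had 23 and 7 counts in mature and 4 and 4 counts in elderly libraries over 450 countable bases (−2.03, SE 0.92, adjusted p = 0.43). Pcdh12, known from endothelial cells, had 10 and 13 counts in mature and 0 and 21 counts in elderly libraries, and the endothelial list summed to 22.3 and 35.0 CPM in mature and to 31.1 and 31.8 CPM in elderly libraries, with Tek and Robo4 at 0. Of the 8 endothelial markers tested, 0 were called, 4 had both elderly values above both mature values and 0 had them below, with a median log2 fold change of 0.83. Both elderly libraries had at most 3 counts of Cdh13, Pcdh20 and Cdh6. Cdh13 had 10 and 4 counts in mature and 2 and 0 counts in elderly libraries, and Pcdh20 had 2 and 8 counts against 0 and 0. None of the 3 passed the test (adjusted p = 0.60, 0.40 and 0.57 by edgeR's quasi-likelihood test).

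The partners of these genes were followed in 7 lists with 78 genes in all, of which 60 were tested. One gene was higher in elderly libraries and 2 were lower, where 2.28% and 0.449% of all genes tested were, and the median log2 fold change of the 60 was −0.14. Among 13 tested catenins and junction adaptors, 0 were higher and 1 was lower. The lower gene was Jup (plakoglobin), which links cadherins to the cytoskeleton as beta-catenin does. It had 35.6 and 39.3 CPM in mature and 18.4 and 14.7 CPM in elderly libraries, without overlap (−1.18, SE 0.25, adjusted p = 0.023). Nearly all of its counts lay on transcripts annotated as noncoding. The coding transcripts held 1 and 1 counts in mature and 0 and 1 counts in elderly libraries. Jup was not called when coding transcripts alone were summed, but so few counts cannot decide this.

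The other catenins did not pass the test. Ctnnb1 (beta-catenin) had 60.4 and 62.3 CPM in mature and 68.1 and 46.7 CPM in elderly libraries (−0.10, SE 0.23, adjusted p = 0.94). Ctnna1 (alpha-catenin), which binds actin at the junction, had 526 and 509 CPM in mature and 404 and 474 CPM in elderly libraries (−0.24, SE 0.19, adjusted p = 0.72). Ctnnd1 (p120 catenin), which keeps cadherins at the surface, had 21.1 and 24.5 CPM in mature and 16.8 and 11.1 CPM in elderly libraries (−0.71, SE 0.28, adjusted p = 0.32). For Ctnna1 and Ctnnd1 both elderly libraries were below both mature ones, and for Ctnnb1 the ages overlapped.

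Among 7 tested repressors of cadherin genes, Zeb1, a zinc finger repressor of Cdh1, was higher and 0 were lower. Zeb1 had 77.7 and 59.0 CPM in mature and 128 and 125 CPM in elderly libraries (0.89, SE 0.21, adjusted p = 0.041), and its main coding transcript had 649 and 473 counts in mature and 1112 and 1542 counts in elderly libraries. Among 10 tested genes of the other cadherin superfamily list, Clstn2 (calsyntenin-2), known from synapses, was lower and 0 were higher. It had 9.03 and 15.3 CPM in mature and 0.987 and 2.77 CPM in elderly libraries (−2.65, SE 0.46, adjusted p = 0.0083). In the remaining 4 lists, 0 of 8 cadherin cleaving proteases, 0 of 12 planar polarity and Fat-Dachsous partners, 0 of 3 tip-link partners and 0 of 7 WAVE complex genes passed the test in either direction.

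**Figure D5:**
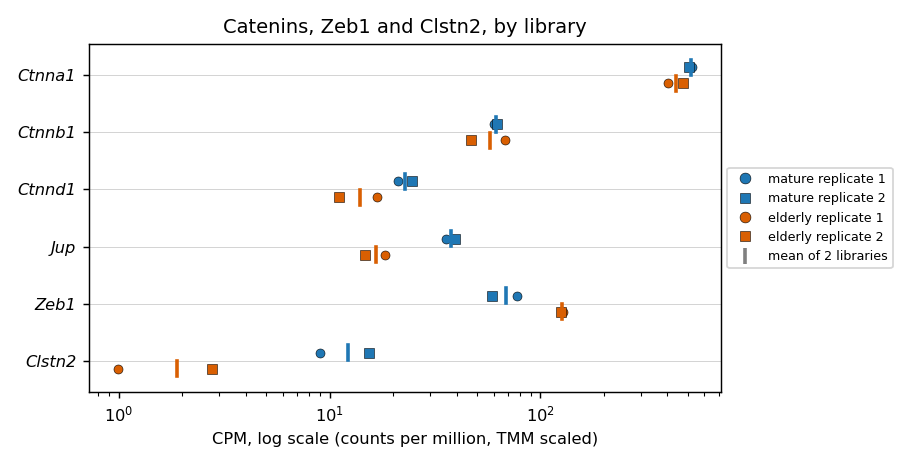
CPM on a log scale of 4 catenins (Ctnna1, Ctnnb1, Ctnnd1, Jup), the repressor Zeb1 and Clstn2, with 1 point per library and a bar at the mean of each age. Jup and Clstn2 lie lower and Zeb1 lies higher in both elderly libraries, whereas the elderly points of Ctnnb1 fall on either side of the mature points.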

How the data were processed

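RNA was sequenced in 4 libraries, 2 per age. The methods of the study describe Lin−LEPR+ cells, whereas the labels name whole bone marrow. The methods describe poly(A) selection but except some samples, which were processed as total RNA. Among these they name a sample by an age in weeks close to that of the mature mice. Whether any of these 4 libraries was made from total RNA is not clear from the sources used here. If the mature libraries were, library preparation and age cannot be told apart. The authors trimmed reads with CutAdapt, mapped them to the mm9 assembly (NCBI Build 37) with HISAT2 and counted them with featureCounts in Galaxy. Raw counts per Ensembl transcript were deposited by the authors, neither normalized nor filtered. The strand setting and the handling of shared bases are not given in the sources used here. Transcripts were matched to GENCODE M1 (388 of 95883 did not match and held at most 0.0888% of the counts) and summed per gene symbol. All 25621 transcripts without a base of their own had 0 counts.

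Genes with more than 2 counts in sum (21402) were tested with edgeR 4.0.16 in R 4.3.3, by the quasi-likelihood test with TMM factors (0.975, 0.995, 1.06 and 0.969), 2-sided, with Benjamini-Hochberg adjustment over all genes, a prior count of 0.125 and no covariate. The common dispersion was 0.0687 (coefficient of variation 0.262). The authors' exact test at a dispersion of 0.2, DESeq2 1.42.0, other filters and scalings, a replicate block, coding transcripts alone (added after the data were seen) and each library left out in turn were alternatives. An exact permutation test of 2 against 2 libraries cannot go below p = 0.333 and was not used.

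Genes named with values are those called or with a mean of at least 1 CPM, others with more than 3 counts in both libraries of an age, partners that were called, and Ctnnb1, Ctnna1, Ctnnd1 and Jup. Celsr2, Cdh1, Cdh6, Dchs1, Fat3, Pcdh20, the genes and markers at 0, Mbp, Ibsp, Col1a1, Cdh26, Cyfip2 and Fzd6 were named in addition, after their values were seen. The genes and lists were chosen with earlier results of these data known. The labels name each library as a single mouse, whereas the methods describe RNA pooled from several mice per group. The p-values therefore measure the spread between these libraries, whichever of the 2 they stand for. The same-numbered libraries did not deviate together (correlation 0.043). The test was checked on simulated data with known changes. It recovered 16 of 100 genes with an absolute log2 fold change of 1 and 80 of 100 with one of 2, and 3.03% of its calls were false. The simulated counts had the same dispersion at both ages, set by the trend with expression, without scatter of single genes around it. These shares therefore hold for that setting and need not hold for the measured libraries. A difference of the smaller size was mostly missed in this simulation. Of the 42 genes, 10 had 2 counts or fewer in sum and were not tested.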

Additional observations from a re-analysis of the deposited data

How the results depend on the processing

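With 2 libraries per age, a gene that was not called may still differ. In alternatives that kept all 4 libraries, Cdh2 kept a log2 fold change between −1.19 and −0.96 and was called in 9 of 11, and Cdh4 kept a value between 1.16 and 1.24 and was called in 9 of 11. The 11 include the fit per transcript, with the value of the most counted transcript, which for Cdh2 is the retained intron Cdh2-002. In that fit the coding Cdh2-001 (−0.81) and Cdh2-003 (−1.66) lay outside this range and were not called. The count of cadherins called higher was 1 (Cdh4) with DESeq2, with filterByExpr, without a filter, with library size alone, with TMM without immunoglobulin, hemoglobin and histone genes, with the robust fit, with the replicate block, with protein-coding genes only and with coding transcripts only. The count of those called lower was 2 (Cdh2 and Fat4) with DESeq2 and without a filter, and 0 with the exact test at a dispersion of 0.2 (Cdh2 at an adjusted p of 0.827) and with coding transcripts only. Leaving out each library in turn gave 0 to 1 higher and 0 to 1 lower, and the 1 higher gene was Celsr1, without mature replicate 2. Cdh2 was called without mature replicate 2 (−1.41, adjusted p = 0.0015) and was not called in the other 3 such fits. The median log2 fold change of the tested cadherins was 0.028 with filterByExpr, which tested 21 of them, and −0.47 with the replicate block, and it ranged from −0.82 to −0.035 when each library was left out in turn.

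Among partner genes, 0 were higher and 1 was lower (Clstn2) with the exact test, and 1 was lower (Clstn2) with coding transcripts only. With each library left out, 0 to 1 were higher and 0 to 2 were lower. Zeb1 was lost without mature replicate 2, without elderly replicate 1 and without elderly replicate 2, and Jup and Clstn2 were lost without either elderly library. The replicate number as a block, which is not known to pair the libraries, called 3 partner genes higher (Cyfip2, Fzd6 and Zeb1) and 975 higher and 292 lower genes of all tested, where the fit without the block called 488 and 96. Beside these and Cdh4, it changed no call of a cadherin or partner gene. The 2 numbers per age shared only a name, with a correlation of deviations of 0.043.

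Over all genes, the calls were 207 higher and 33 lower with the exact test, 938 and 241 without a filter, 551 and 155 with DESeq2, 732 and 183 with the robust fit, 555 and 156 with protein-coding genes only, 739 and 133 without mature replicate 1, 506 and 153 without mature replicate 2, 53 and 9 without elderly replicate 1, and 0 and 0 of 20631 genes without elderly replicate 2. The direction of 10 genes, none of them called, depended on 1 library. Leaving out each library in turn, the log2 fold change ranged from −0.26 to 0.38 for Cdh11, from −0.33 (without elderly replicate 1, and −0.28 without mature replicate 1) to 0.43 for Cdh15, from −0.46 (without mature replicate 2, and −0.25 without elderly replicate 2) to 0.90 for Fat1, from −0.037 to 2.27 for Celsr1, from −1.25 to 0.35 (without mature replicate 1, and 0.13 without elderly replicate 1) for Pcdh11x, from −0.25 to 1.18 for Cdh23, from −1.33 to 0.47 for Pcdh17, from −0.12 to 0.34 for Pcdh7, from −0.39 to 0.74 for Pcdh8 and from −0.80 to 1.22 for Cdh19. The causes of these differences were not tested.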
